A study of Rattus norvegicus with 6 samples.

Results

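On 6 arrays of rat liver, 7 of 30367 probes gave a signal well above background on each of the 3 arrays from rats dosed with pregnenolone-16α-carbonitrile (PCN) and on none of the 3 arrays from control rats. They were chosen by these detection marks: most of the usable copies of a probe had to be marked well above background on each PCN array, and fewer than that on each control array, with no tie. The rule kept 8 probes, and the probe of Cda (cytidine deaminase) was then dropped by name. Abcc3, also to be dropped, did not meet the rule, since 1 of its 2 copies was well above background on PCN array 1. Because the same 6 arrays chose the probes, every difference between PCN and control given for them is a description and has no test.

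The PCN rats received 100 mg/kg per day for 7 days, and the control rats received corn oil for the same time, both by oral gavage. All were male rats of the Wistar Hannover stock (RCCHan:WIST), bought at 4 weeks of age and kept for 1 week before dosing, with 3 rats in each group. Labelled RNA from whole liver was hybridised to 1-colour Agilent expression arrays, 1 array per rat. All cell types of the liver contribute to such a sample, so more cells of a type and more RNA per cell cannot be told apart.

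PCN, a man-made steroid, is a strong ligand of the pregnane X receptor (PXR) in rats and mice. This nuclear receptor of hepatocytes senses steroids, bile acids and foreign compounds. Once bound by a ligand, PXR pairs with the retinoid X receptor and switches on genes of drug oxidation, conjugation and transport. Most of its well-known targets are already transcribed in the untreated liver. A transcript that crosses the detection limit of an array after dosing is a different kind of case, since its level without the compound is known only as an upper bound.

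Only 2 of the 7 probes carry a gene symbol through their transcript accession. One of them measures Azin2, which encodes antizyme inhibitor 2. The values of 6 of the 7 probes are given below. Probe A_64_P132261 is assigned to the transcript XM_001080324, which matched no symbol. The other 4, A_64_P030504, A_64_P071461, A_64_P001671 and A_64_P070333, are listed under their own probe names, with no transcript. Symbols were thus found for 28.6% of these probes, against 59.3% of all probes, and 57.1% had no transcript, against 13.8% of all probes. The trait was not particular to them: of 250 probes detected only in controls, 36.4% had a symbol and 33.2% had no transcript. The values of the 5 unnamed probes are given by probe name.

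Values below are log2 signals relative to the 75th percentile of the array, so 0 is the level of a fairly bright probe. The lowest level that still counted as well above background lay between −5.83 and −5.21 on the PCN arrays and between −5.91 and −5.59 on the control arrays. The 75th percentile itself was 488 to 627 intensity units on PCN arrays and 633 to 758 on control arrays. Between 61.6% and 65.8% of spots were well above background on the PCN arrays, against 65.5% to 68.9% on the control arrays. The PCN arrays shared 1 slide and 1 scan, and the control arrays another, and the effects of slide and dosing cannot be told apart. The local background differed between the slides: its median was 26 to 30 units on PCN arrays and 37 to 39 on control arrays. The 6 hepatocyte markers were detected on the arrays of both groups, with summed levels of 1170 to 1600 on PCN arrays and 1270 to 1330 on control arrays, as multiples of the 75th percentile. Of 8 other marker lists, the sums of 3 did not overlap between groups: T cell markers summed to 0.42 to 0.53 with PCN and 0.587 to 0.742 in controls, stellate cell markers to 10.3 to 12.3 and 12.4 to 13.8, and cholangiocyte markers to 0.559 to 0.659 and 0.433 to 0.536. Of the 6 T cell markers, 2 were detected on no array. For single probes, the 3 PCN arrays lay above the 3 control arrays at 15.0% of tested probes, and the share lying below was not counted. Markers within the stellate cell and cholangiocyte lists went both ways, while the 4 tested T cell markers were all lower with PCN (−0.67 to −0.01). Among stellate cell markers Lrat differed by −1.335 and Rgs5 by 0.96 on the log2 scale. Among cholangiocyte markers Epcam differed by 0.60 and Krt19 by −0.41 (limma, adjusted p = 0.0585 and 0.21). The part of these cells in the values below was not tested.

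The opposite pattern was more frequent. By the same marks, 250 probes were well above background on each control array and on no PCN array. Their differences, PCN minus control, ran from −4.82 to −0.29 with a median of −1.46. Those of the 6 probes described below ran from 2.76 to 11.39, and the median over all 7 was 3.42. All 7 were at least 2-fold higher on the PCN arrays, as were 0.913% of the 17856 tested probes. The 3 PCN arrays lay above the 3 control arrays for all 7, and for 15.0% of the tested probes. The limma test across all tested probes called all 7 higher, and called 4.36% of the tested probes higher, and the choice of the probes leaves nothing to be read from these counts.

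The brightest of them was A_64_P132261. Its log2 signal was 4.49, 5.65 and 4.83 on PCN arrays 1 to 3, against −6.49, −6.94 and −5.78 on control arrays 1 to 3. The groups were far apart, with the dimmest PCN array more than 10 log2 units above the brightest control array. The mean was 4.99 ± 0.60 with PCN and −6.40 ± 0.59 in controls (SD, n = 3 each), a difference of 11.39 ± 0.38 (SE). This was the largest difference of all 30367 probes under the main scaling. Since no control array detected it, the fold is given as a bound, here at least 1691-fold higher. The bound sets the PCN mean against the mean, over control arrays, of the higher of the lowest detected level and the probe's own signal. It is no confidence limit. The lowest detected level is that of the dimmest detected probe, and some undetected probes lay above it. On control array 1, for example, an undetected probe read −5.58, against a lowest detected level of −5.905. A stricter limit would give smaller bounds. The bound holds for the subtracted signal alone. With normexp background correction the difference was 7.98. Without subtraction, a setting added after the values were seen, it was 8.54. Both lie under the 10.72 of the bound on the log2 scale. The same was true of all 7 probes, whose differences under both settings were smaller than their bounds. That outcome was largely built in, since normexp was run with an offset of 50 units and the other setting keeps the background. Either one shrinks log2 differences where the control signal is a few units, so neither is an independent estimate.

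The processed signal of the spot, before scaling, was 13335, 31484 and 13885 units on the PCN arrays, against 7.57, 6.16 and 11.6 units on the control arrays. Before any background was subtracted, the foreground read 11531, 27250 and 11785 units with PCN and 49, 52 and 49 units in controls. On the control arrays that foreground was near the top of the negative control spots, which are designed to bind no transcript: 3, 5 and 1 of 308 reached it on control arrays 1 to 3. On the PCN arrays the probe ranked at the 95.9th, 98.0th and 96.4th percentile of all probes, and on the control arrays between the 22.7th and the 37.2th. The probe has 1 copy on the array, and no other probe is assigned to its transcript, so no second measurement of it was available here.

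The next was A_64_P030504, which has 2 copies on the array. Its log2 signal was 2.10, 3.52 and 2.53 on PCN arrays 1 to 3, against −7.38, −7.27 and −6.64 on control arrays 1 to 3. The groups did not overlap, and PCN array 2 was again the highest. The difference was 9.81 ± 0.38 (SE, n = 3 per group), the second largest of all probes, and the bound was at least 350-fold higher (349.9). The 2 copies gave nearly the same signal on each PCN array, with the higher over the lower at 1.04, 1.06 and 1.05. On PCN array 2, for example, they read 7399 and 6958 units. In controls the copies read 2.72 to 9.30 units over the 3 arrays, and the larger over the smaller on the same array was 1.95 to 2.23. Of these 6 control spots, 2 were marked as not positive and significant, so their values are floors.

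Both of these probes were highest on PCN array 2. Compared with the mean of PCN arrays 1 and 3 on the log2 scale, array 2 was 1.98-fold higher for A_64_P132261 and 2.29-fold higher for A_64_P030504. Both probes were measured in all 3 dosed rats, and the lowest of them still lay in the upper part of the array.

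The 3 other probes without a name were much dimmer after PCN. A_64_P071461, with 2 copies, gave −4.41, −3.32 and −3.97 on PCN arrays 1 to 3, against −8.19, −7.98 and −7.83 on control arrays 1 to 3. The groups did not overlap, and the copies differed by a ratio of at most 1.07 on a PCN array. Its difference was 4.10 ± 0.27, with a bound of at least 3.57-fold higher. With normexp the difference was 1.03, and without subtraction 1.40. All 6 control spots were marked as not positive and significant. At such spots the processed signal stands at the software's own error estimate (2.21 units with an error of 2.22 at 1 copy on control array 1), so it is a floor rather than a measured level.

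A_64_P001671, with 1 copy, gave −4.04, −3.79 and −5.02 on PCN arrays 1 to 3, against −8.24, −7.70 and −7.17 on control arrays 1 to 3. PCN array 3 was the lowest of its group, at 15.0 units of processed signal, against 36.0 and 45.5 on PCN arrays 1 and 2. Its difference was 3.42 ± 0.38, with a bound of at least 2.73-fold higher. On control array 1 its spot was marked as not positive and significant (2.24 units with an error of 2.24), so −8.24 is a floor.

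A_64_P070333, also with 1 copy, gave −4.50, −1.97 and −4.82 on PCN arrays 1 to 3, against −7.86, −6.89 and −6.68 on control arrays 1 to 3. A single array carried most of its height: the processed signal was 160 units (160.02) on PCN array 2, against 26.2 and 17.2 units on PCN arrays 1 and 3. Its SD over the PCN arrays was 1.56, the largest of the 7 probes, and its difference of 3.38 ± 0.75 fell to 2.48 without PCN array 2. The bound was at least 3.92-fold higher, and at least 2.10-fold higher without PCN array 2.

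Azin2 was measured by 2 probes. The protein belongs to the ornithine decarboxylase family but does not itself make polyamines. It binds antizyme, the inhibitor of ornithine decarboxylase, and so releases that enzyme, which starts the synthesis of putrescine. The Azin2 probe A_44_P455059 gave −4.50, −4.55 and −4.36 on PCN arrays 1 to 3, against −7.22, −6.87 and −7.58 on control arrays 1 to 3. The PCN arrays were close together (SD 0.10), unlike those of the unnamed probes. The difference was 2.76 ± 0.18 (SE, n = 3 per group), and the bound was at least 2.40-fold higher. On control array 3 the spot was marked as not positive and significant (3.31 units with an error of 3.32). The −7.58 is therefore a floor and enters the difference as such.

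A second Azin2 probe, A_44_P304880 on the same transcript, is not among the 7, because it was well above background on control arrays 2 and 3. It gave −4.29, −4.45 and −4.37 on PCN arrays 1 to 3, against −5.75, −5.26 and −4.80 on control arrays 1 to 3. The PCN arrays again lay above the control arrays, but the difference was 0.90 ± 0.23, smaller than at the first probe.

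The foreground of the first Azin2 probe was 58, 58 and 56 units on the PCN arrays and 45, 50 and 40 units on the control arrays. The background beside the spot was 23, 23 and 21 units with PCN, against 32, 37.5 and 39 units in controls. Foreground and background therefore moved in opposite directions, and the subtracted signal took up both. Without background subtraction the Azin2 difference was 0.63 (0.625) after the same scaling, and it was 0.60 with normexp. Both lie under the bound, which is 1.26 on the log2 scale. The slide and the dosing cannot be told apart in this background.

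The other genes of polyamine metabolism were listed once Azin2 was known, before their values were read. Of 14 such genes tested, 0 rose and 1 fell, with a median difference of 0.01, against −0.05 over all tested probes. Of all tested probes, 4.36% were called higher and 14.8% lower. The gene that fell was Sat1, the acetyltransferase that marks polyamines for export and breakdown, by 0.69 ± 0.16 (limma, adjusted p = 0.0256). The next 3 are named for their roles, after their values were seen. Odc1, ornithine decarboxylase itself, gave 0.04 ± 0.10 (adjusted p = 0.803), and Azin1, the more widely expressed antizyme inhibitor, gave −0.08 ± 0.10 (adjusted p = 0.621). The antizyme gene Oaz1 gave −0.03 ± 0.11 (adjusted p = 0.883). The call of Sat1 was lost without PCN array 2 or 3, without control array 2 or 3, with the replicate block and with no filter on dim probes. Under the other settings the median of the list lay between −0.05 and 0.14, and the number that fell between 0 and 2.

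The same comparison of foreground and local background holds for the 7 probes as a set. Over their 30 spots with PCN the background was 19 to 34 units, against 32 to 41 units over the 30 spots in controls. With no scaling and no subtraction, the foreground differed by 8.27 for A_64_P132261 and 6.22 for A_64_P030504 on the log2 scale. It differed by 1.13 for A_64_P071461, 1.09 for A_64_P070333 and 0.65 for A_64_P001671. For Azin2 it differed by 0.36. Over the 10258 probes detected on no array, the foreground differed by a median of −0.18, and the subtracted and scaled signal by a median of 0.13. On each PCN array, 0 of 308 negative control spots reached the foreground of any of the 7 probes. On the control arrays, the foreground of 4 of the 7, A_64_P132261, A_64_P070333 and Azin2 among them, was above the 95th percentile of the negative spots on all 3 arrays, and A_64_P071461 was the one below it on all 3.

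The spread among the dosed rats was wide for most of these probes. The SD over the PCN arrays exceeded the 95th percentile of all detected probes (0.49) for 5 of the 7, the unnamed ones. The median over 16448 probes detected on all PCN arrays was 0.16. That reference pools probes of every brightness, while A_64_P071461, A_64_P001671 and A_64_P070333 were dim. No set of like brightness was compared. PCN array 2 was the highest for the same 5 probes, against 30.3% of the detected probes. The excess of array 2 over the mean of arrays 1 and 3 was 0.75 to 2.69 for these 5 and −0.12 for Azin2.

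Known targets of PXR and of the related receptor CAR were set beside the 7 probes to see how they stood in control liver. Of 55 tested genes from a list of such targets and related genes, none of them a member, 31 rose and 4 fell, beside 4.36% and 14.8% of all tested probes. All 31 that rose were well above background on all 3 control arrays, with control means from −4.30 to 7.57. The filter left this count little room to differ. A gene undetected on every control array was tested only if detected on all 3 PCN arrays, which is nearly the rule itself. The probe of Abcc3 was detected on no control array and averaged −4.25 with PCN and −6.83 in controls, but was not tested. The largest rise was that of Sult2a2, a steroid and bile acid sulfotransferase, which averaged 3.81 with PCN and −1.03 in controls (difference 4.84 ± 0.71, adjusted p = 5.87e-03). Cyp3a23-3a1, a drug-metabolising cytochrome P450 that PXR ligands induce in rats, averaged 8.25 with PCN and 3.94 in controls (4.31 ± 0.19, adjusted p = 1.46e-04). No gene of the list differed by as much as A_64_P132261 or A_64_P030504. This was fixed, since theirs were the largest differences of all probes. Among the 31 that rose, 10 were highest on PCN array 2, with an excess of array 2 between −0.78 and 0.78.

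Of the probes just outside the rule, 20 were well above background on all 3 PCN arrays and on 1 control array, and 14 of these had no evenly split copies on another control array. Among the 14, the one with the largest difference was a probe of Dnajb3, a DnaJ co-chaperone gene, which averaged −3.11 with PCN and −6.11 in controls. The probe of Hrk, an activator of apoptosis of the BH3-only kind, averaged −2.97 with PCN and −5.93 in controls. The next, A_64_P092971, averaged −4.38 with PCN and −6.12 in controls. A further 45 probes were detected on 2 PCN arrays and on no control array. Of these, 31 had no evenly split copies on a control array, with the largest difference at Abcc3. Apart from these, 1 probe, of Gab1, was detected on all 3 PCN arrays. It missed the rule through a control array on which its copies were evenly split. The smallest differences of the 6 probes described were those of Azin2, A_64_P070333 and A_64_P001671, though the rule set no limit on the difference.

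The number of probes that met the rule hung on single arrays. Leaving out PCN array 3, the one with the lowest share of detected spots, gave 31 probes, and leaving out PCN array 2 gave 13. Leaving out control array 1 gave 15 and leaving out control array 2 gave 11. The 7 probes were among those found in each of these cases, which was fixed in advance, since leaving out an array only removes a condition.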

How the data were processed

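Liver RNA of 3 PCN and 3 control rats was measured on Agilent 1-colour arrays. The file headers name Agilent Feature Extraction 10.7.3.1 as the source of the deposited intensity values, and the signal used is already background-subtracted within the array. The authors also deposited a table, which by comparison holds that signal as a linear ratio to the 75th percentile of its array, to 2 decimals. Detection marks were taken as deposited.

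Outlier spots (up to 0.906% of an array) and control spots were left out, log2 signals were scaled to the 75th percentile, and copies of a probe were averaged in R 4.3.3. A probe counts as detected if a share above 0.5 of its usable copies is marked; 14 probes lost every copy on an array. Probes were named by unversioned transcript accession through RefSeq's table for GRCr8, where 18004 of 30367 matched 1 symbol. Genes with several probes stand for their brightest. limma 3.58.1 (lmFit and eBayes, two-sided, Benjamini-Hochberg over 17856 probes detected on all arrays of a group, threshold 0.05) compared the groups, and was checked on simulated data. The test called 779 probes higher and 2651 lower, against 1820 and 2111 with median scaling, 1161 and 2043 with quantile normalization and 867 and 1501 with normexp. The number of arrays limits the precision.

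The probes and lists were chosen with earlier results of these data known. Of the 7 members 6 are named and 1 is not reported here. Also named are the 3 probes with the largest differences among those just outside the rule, and PXR and CAR list genes by largest change. Genes of the polyamine set were named after their values were seen. The normexp alternative used median foreground and background, since those columns are present, with an offset of 50 units.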

Additional observations from a re-analysis of the deposited data

How the results depend on the processing

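The 7 probes were found again when outlier spots were kept, when every copy had to be detected, and when at least a 2-fold difference was asked. These outcomes were fixed. No spot of the 7 was marked as an outlier, each probe has 1 or 2 copies, and all 7 differences already exceeded 2-fold. With the weaker mark for positive and significant spots, 17 probes were detected only after PCN and 109 only in controls. A rule on foreground above the 95th percentile of negative control spots, added after the data were seen, gave 26 probes after PCN. Under each of these last rules 1 of the 7 probes, A_64_P071461, was among them. With 1 array left out the count, which can then only stay or rise, was 7 to 31 after PCN and 272 to 455 in controls. No member's difference changed sign under any setting run, and the choice of the probes left little room for that. With 1 array left out the sign was fixed, since the groups did not overlap. With normexp the differences were 7.98 for A_64_P132261, 5.87 for A_64_P030504, 1.03 for A_64_P071461, 0.80 for A_64_P001671 and 1.08 for A_64_P070333. The deposited table (pseudocount 0.005) gave 1.68 for Azin2. The test called 2028 probes with no filter on dim probes, where 30353 were tested, and 2165 to 2700 with 1 array left out. With the replicate number as a block it called 2206. The numbers do not pair the samples, since deviations of same-numbered arrays correlated at −0.10, −0.02 and −0.05. Over all settings the test called 5 to 7 members, A_64_P070333 being among those missed, and 30 to 32 PXR and CAR list genes with 1 array left out, against 35 with all arrays. The search for motifs in promoters was not run.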
